A study of Homo sapiens with 83 samples.

Results

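Lysosomes are the cell's acidic digestive compartments, and 50 human genes stand here for them: the transcription factors TFEB, TFE3 and MITF, proteins of the lysosomal membrane, subunits of the proton pump that acidifies the lumen, and the enzymes that break down protein, sugar chains, sulfated chains and lipid. They were chosen by gene symbol from a list written with earlier results of these data known, by a rule that uses no measured value, and each of the 50 had 1 entry among the 60237 genes of the deposited table. RNA had been sequenced in 83 libraries of 2 human neuroblastoma lines, SHEP and SKNAS, both of which express N-MYC-ER constitutively. N-MYC-ER is N-MYC joined to an estrogen receptor part that keeps it out of the nucleus until 4-hydroxytamoxifen (4OHT) is added. In MYC-OFF cells ethanol was given as the vehicle, and in MYC-ON cells 4OHT. Every group also received dexamethasone, which sets the clocks of the cells to a common phase, and was then sampled every 4 h. CT, circadian time, is the number of hours since that addition. SHEP gave 28 libraries of either state, made of 2 series of 14 time points from CT24 to CT76. SKNAS gave 1 series of either state, with 14 MYC-OFF libraries from CT24 to CT76 and 13 MYC-ON libraries that ended at CT72. The model is one of acute activation in engineered lines, not of an amplified MYCN gene, and 4OHT in place of its vehicle is what separates the 2 states. A further line and another SKNAS series were not analysed here.

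Material reaches the lysosome by endocytosis or autophagy and is cut down to amino acids, sugars and lipids by hydrolases that work only at low pH. The V-ATPase pumps protons in, membrane proteins such as LAMP1 and LAMP2 shield and shape the compartment, and transporters return the products to the cytosol. TFEB, TFE3 and MITF are close relatives (the MiT/TFE family) with a basic helix-loop-helix and leucine zipper. When nutrients are scarce they enter the nucleus and activate many lysosomal genes through a site known as the CLEAR element, whose core is the E-box CACGTG. MYC proteins with their partner MAX bind the same core, so that both kinds of factor can meet at one sequence.

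The core was read in the promoters of the listed genes because it is the letters that both families of factors recognise. RefSeq promoters (250 bases before to 50 after a start site, GRCh38.p14) were at hand for 35 of the 50 genes, and a gene was counted where any of its listed starts held the motif. CACGTG, searched on both strands, stood in 12 of the 35 genes (34.3%) and in 8.77% of 27305 genes with a promoter. Its longer form TCACGTGA stood in 7 of the 35 (20%), against 1.18% of all. The 7 genes were LAMP1, MCOLN1, CLN3, ATP6V0D1, CTSA, SCPEP1 and GAA. The 10-base palindrome that adds 1 more base on either side stood in 2 of the 35, GAA and MCOLN1 (5.71%, against 0.421% of all). Each longer motif holds the shorter ones, so the 3 counts overlap. The stretches around these sites are given for 6 of the 7 genes, 5′ to 3′ on the strand of the gene, with TCACGTGA or the 10-base palindrome in capitals. They are shown because the genes that carry them are met again below with different responses.
LAMP1, chr13:113297195-113297232, plus strand: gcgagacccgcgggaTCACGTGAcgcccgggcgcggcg
MCOLN1, chr19:7522567-7522623, plus strand: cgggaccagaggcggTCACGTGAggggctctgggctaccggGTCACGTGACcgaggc
ATP6V0D1, chr16:67481195-67481232, minus strand: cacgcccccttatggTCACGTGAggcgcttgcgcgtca
CTSA, chr20:45891294-45891331, plus strand: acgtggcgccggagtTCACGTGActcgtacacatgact
SCPEP1, chr17:56978088-56978125, plus strand: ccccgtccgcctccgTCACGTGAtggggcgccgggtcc
GAA, chr17:80101488-80101572, plus strand: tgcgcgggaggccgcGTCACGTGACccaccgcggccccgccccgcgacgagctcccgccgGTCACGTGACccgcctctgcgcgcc
All 6 stretches lie close to the start of transcription. Counted from the start, the first base of the site was at -29 in LAMP1 (with a second copy at -2), -42 and -16 in MCOLN1, -60 in ATP6V0D1, -26 in CTSA, -28 in SCPEP1, and -78 and -33 in GAA. A match describes letters in a window and not binding, and the genes outside the table were not searched.

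Levels are TPM: transcript abundances divided by gene length and scaled so that each library sums to the same total. The read depth behind a TPM value is unknown here. The SHEP libraries were even, with a median log2(TPM + 1) over the tested genes between 3.93 and 4.17. The SKNAS libraries were not: this median ran from 2.97 to 4.38 in MYC-OFF and from 2.76 to 4.25 in MYC-ON, and 10 of the 14 MYC-OFF libraries but 3 of the 13 MYC-ON libraries had at least 3.8. MYCN RNA was high in every group, at means of 555 TPM (MYC-OFF) and 377 TPM (MYC-ON) for SHEP and of 547 and 365 TPM for SKNAS. The construct is always expressed and 4OHT acts on its protein, so these levels do not check the labels. VIM, a mesenchymal marker, was at 3469 TPM in SHEP and 1431 TPM in SKNAS (both MYC-OFF), and GATA3, an adrenergic marker, was at 17.1 TPM and 61.2 TPM in the same groups. Of 6 markers of macrophages, which are rich in lysosomes, TYROBP, AIF1, ITGAM and CD14 stayed below 2 TPM in every library, CSF1R was at most 3.96 TPM and PTPRC was at most 0.0118 TPM in SHEP. In SKNAS, however, PTPRC was at 80.4 TPM in MYC-OFF (13.03 to 132) and 21.5 TPM in MYC-ON (3.13 to 59.7), so that 1 of the 6 fell along with the lysosomal genes (log2 change -1.94, adjusted p = 0.0004733), and its part in the result was not tested. TYR, which defines melanocytes, a cell type rich in MITF, was at 0 in SHEP and at most 0.0158 TPM in SKNAS.

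In both lines the listed genes made up a smaller share of the measured RNA in MYC-ON cells. In SHEP the summed level of the 50 genes was 6241 TPM ± 302 (SD, n = 28) in MYC-OFF, with a lowest, median and highest library of 5425, 6273 and 6664, and 4129 ± 164 in MYC-ON, with 3737, 4134 and 4485. The groups did not overlap, and the MYC-ON mean was 0.662 of the MYC-OFF mean. In SKNAS the sum was 4925 ± 672 (n = 14) in MYC-OFF, from 3312 through a median of 5221 to 5503, and 2927 ± 414 (n = 13) in MYC-ON, from 2295 through 2926 to 3786, a ratio of 0.594 between the means. Here the groups overlapped. Because each library sums to a fixed total, the sum is a share of all RNA measured. This share was 0.624% against 0.413% in SHEP and 0.493% against 0.293% in SKNAS. Fewer cells that express a gene, less of its RNA per cell and more of other RNA cannot be told apart. A few genes dominate the sum: PSAP, which encodes the saposins that assist lipid breakdown, the peptidase CTSB and the membrane protein CD63 accounted for 57.7% of the net fall in SHEP and 49.3% in SKNAS.

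**Figure D1:**
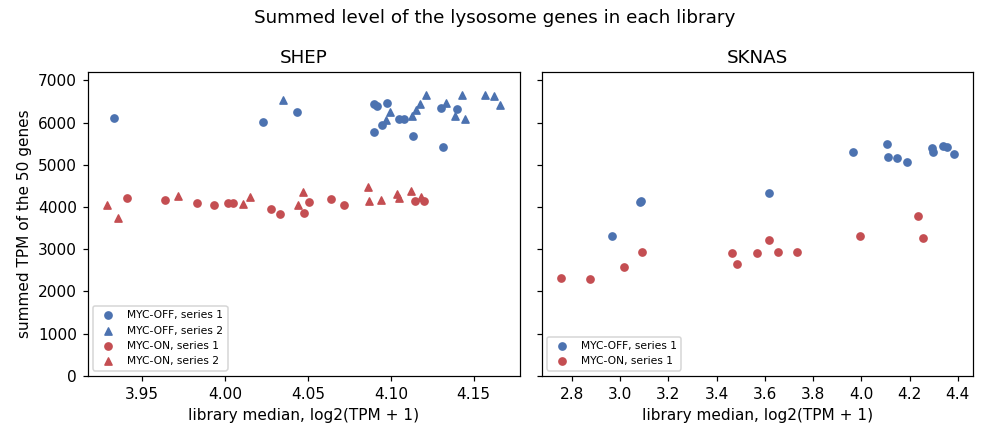
Summed TPM of the 50 genes in each library (vertical axis) against the library's median log2(TPM + 1) over the tested genes (horizontal axis), for SHEP and SKNAS, with MYC-OFF in blue and MYC-ON in red. The 2 SHEP groups are separate at like medians, between 3.93 and 4.17, whereas the SKNAS libraries spread from 2.76 to 4.38 and overlap in their sums.

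All 3 MiT/TFE factors fell in SHEP MYC-ON cells. MITF (chromosome 3, 69739456 to 69968336, plus strand, GRCh38), best known from melanocytes and osteoclasts, had a lowest, median and highest level of 17.3, 23.4 and 40.1 TPM in MYC-OFF and 8.17, 11.2 and 23.4 TPM in MYC-ON, means of 23.7 ± 4.54 and 12.1 ± 3.32. The groups overlapped at their edges, but MITF was lower in MYC-ON at 28 of 28 matched time points, with a log2 change of -0.93 (SE 0.057, adjusted p = 2.387e-19). TFEB (chromosome 6, 41683978 to 41736259, minus strand), the factor studied most in lysosome formation, was the least abundant of the 3 in SHEP. It had 4.37, 7.45 and 12.8 TPM in MYC-OFF and 3.28, 4.53 and 7.86 TPM in MYC-ON, and the log2 change was -0.52 (SE 0.073, adjusted p = 1.61e-08), lower in 25 of 28 pairs. TFE3 (chromosome X, 49028726 to 49043410, minus strand), expressed in most tissues, was the most abundant, with 49.4, 53.3 and 63.8 TPM in MYC-OFF and 35.9, 41.6 and 56.9 TPM in MYC-ON. Its change was the smallest of the 3, at -0.34 (SE 0.034, adjusted p = 2.294e-12), lower in 26 of 28 pairs. In MYC-OFF cells of SHEP the ranges of the 3 factors did not overlap, so the order TFE3, MITF, TFEB holds beyond their spread.

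In SKNAS the order of the factors was another, and fewer of them passed the test. TFE3 was again highest, at 24.8 TPM ± 11.1 in MYC-OFF and 12.6 ± 6.68 in MYC-ON, TFEB followed at 11.8 ± 3.87 and 8.89 ± 1.64, and MITF was lowest at 4.51 ± 2.25 and 1.97 ± 1.28. TFE3 ran from 5.73 through a median of 30.2 to 37.9 TPM in MYC-OFF and from 3.05 through 12.6 to 21.7 TPM in MYC-ON, and it fell (log2 change -0.91, SE 0.27, adjusted p = 0.01244). MITF, with 1.21, 4.06 and 7.97 TPM against 0.662, 1.59 and 5.23 TPM, fell as well (-0.84, SE 0.23, adjusted p = 0.007014). TFEB did not pass the test: its MYC-OFF libraries ran from 1.45 through 12.1 to 18.9 TPM, its MYC-ON libraries from 6.58 through 9.54 to 11.3 TPM, and the log2 change was -0.29 (SE 0.21, adjusted p = 0.2612), although 12 of 13 pairs were lower. These calls depend on the uneven SKNAS libraries. With the library median as a covariate TFE3 was at -0.25 (adjusted p = 0.05378), and in the libraries with a median of at least 3.8 MITF was at -0.41 (adjusted p = 0.1663) while TFEB passed at -0.65 (adjusted p = 0.00738). Under a rescaling of the libraries TFEB stood at 0.07 (adjusted p = 0.8222), a change of sign. No factor differed between the lines in its response to MYC by the 0.66 asked for (SKNAS minus SHEP 0.23 for TFEB, -0.57 for TFE3 and 0.09 for MITF).

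Of the 50 genes, 49 were abundant enough to test in SHEP, that is, at a mean of at least 1 TPM over the line's libraries. In MYC-ON cells 37 of them were lower, 6 were higher and 6 were not called. A call needed an adjusted p no greater than 0.05 together with a log2 change of 0.15 or more in size. Of all 14362 genes tested in SHEP, 38.9% were called lower and 33.0% higher, which is the background for these counts. The median log2 change of the listed genes was -0.52, and that of all genes tested was -0.036. The gene left out is CTSZ, which encodes a carboxypeptidase and did not exceed 0.578 TPM in any library of either line. In 18 of the 49 genes every MYC-ON library lay below every MYC-OFF library, as it did for 6.36% of all genes tested, and in 1, PPT1, every MYC-ON library lay above (6.11% of all genes). The median over the listed genes was below 0 in 28 of 28 matched pairs. Taken separately, the 2 series gave the same sign for 46 of the 49 genes, 39 lower and 7 higher, and their log2 changes differed by a median of 0.057. The exceptions, LAMP1, ATP6V1H and ATP6V1A, lay close to 0 in both. With 1 mean per series, so that n is 2 in each state, 34 genes were called lower and 6 higher. Of all 14362 genes, 4091 were called lower and 3443 higher in that fit.

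In SKNAS 34 genes were lower and 2 higher of the 48 tested, and 12 were not called. The background there was 34.4% lower and 13.7% higher of 13886 genes, and the median log2 change was -0.81 for the listed genes and -0.29 for all genes. Fewer MYC-ON than MYC-OFF libraries of SKNAS had a median of at least 3.8, and the cause of the shift of all genes was not tested. Rescaling and the covariate both level the libraries, so they bring the median of all genes near 0 largely by construction. Rescaling the libraries by the median of ratios moved the median of all genes to 0.03, and using the library median as a covariate moved it to 0.013. The share of all called genes that were higher then rose from 28.5% to 53.6% and 52.0%, and the listed genes counted 27 lower and 5 higher, and 30 lower and 5 higher. Of all 13886 genes, 3314 were lower and 3831 higher after rescaling, and 3620 were lower and 3924 higher with the covariate. Relative to the median of all genes, the median listed gene lay at -0.52 in the fit as designed, at -0.51 after rescaling and at -0.41 with the covariate. Within the 13 SKNAS libraries with a median of at least 3.8, which hold 3 MYC-ON libraries, 30 listed genes were lower and 2 higher, and 27 of the 30 were among the 34. Of all 14217 genes tested there, 3699 were lower and 2914 higher, so that 44.1% of all called genes were higher. In 2 genes, CD63 and NPC2, the SKNAS groups did not overlap (2.09% of all genes lay wholly below, and 2.32% wholly above, where no listed gene did). IDUA, the enzyme lost in Hurler syndrome, was tested in SHEP only, since its mean in SKNAS was 0.0242 TPM in MYC-OFF and 0.0313 in MYC-ON, against 13.4 and 9.17 in SHEP.

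Across the lines, 33 genes were lower in both and 2, CTSL and PPT1, were higher in both. The share of all genes called alike in both lines was not counted, so these counts stand without a background. No listed gene was called in opposite directions in the fits as designed. CLN3, CTSC, GLA and MCOLN1 were higher in SHEP and not called in SKNAS, TFEB, LGMN and NAGLU were lower in SHEP and not called in SKNAS, and ATP6V1A was lower in SKNAS and not called in SHEP. LAMP1, NPC1, ATP6V1H, GAA and HEXA were called in neither line as designed. In the SKNAS libraries with a median of at least 3.8, GAA (-0.36, adjusted p = 0.02741) and NAGLU (-0.59, adjusted p = 0.008406) were called lower.

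**Figure D2:**
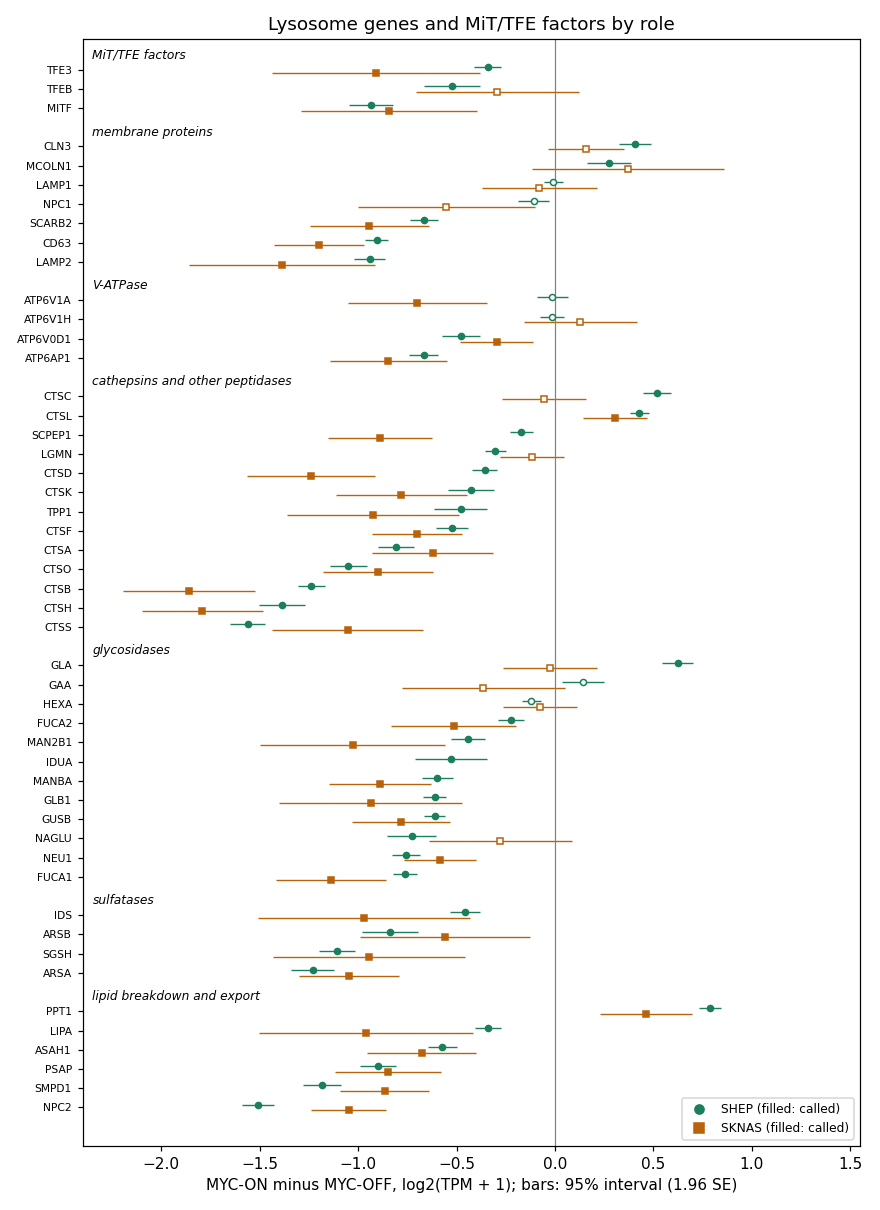
Log2 change of MYC-ON against MYC-OFF on the log2(TPM + 1) scale (horizontal axis) for each gene (vertical axis), ordered by role, in SHEP and SKNAS, with bars for the 95% interval and filled points for called changes. Most points lie left of 0 in both lines, and PPT1 (0.79 in SHEP and 0.46 in SKNAS) and CTSL (0.43 and 0.31) lie to the right in both.

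Peptidases made up the largest role, and 11 of the 13 tested fell in SHEP, where 2 rose and all 13 were called. On the log2(TPM + 1) scale the largest change of any listed gene in SHEP was in CTSS, a cysteine cathepsin known from antigen presentation. Its lowest, median and highest SHEP libraries were 37.1, 47.6 and 56.7 TPM in MYC-OFF and 10.4, 15.2 and 21.2 TPM in MYC-ON. The MYC-ON mean was 32.7% of the MYC-OFF mean, the groups were far apart, and the log2 change was -1.56 (SE 0.046, adjusted p = 2.203e-31). CTSH, an aminopeptidase among the cathepsins, had 124, 167 and 192 TPM in MYC-OFF and 42.1, 58.7 and 99.8 TPM in MYC-ON (-1.39, SE 0.058, adjusted p = 2.232e-25). CTSB, a cysteine protease and one of the most abundant of the 50 transcripts, had 641, 732 and 792 TPM in MYC-OFF and 254, 308 and 372 TPM in MYC-ON (-1.24, SE 0.034, adjusted p = 3.13e-32). In none of these genes did a MYC-ON library reach the MYC-OFF range. CTSO, near the floor at 2.08 TPM against 0.484 TPM, changed by -1.05 on this scale, although its MYC-ON mean was 23.3% of its MYC-OFF mean. CTSA, the protective protein of neuraminidase and beta-galactosidase, changed by -0.81, CTSF by -0.52, TPP1 by -0.48, CTSK, the collagenase of osteoclasts, by -0.43, the aspartic protease CTSD by -0.36, LGMN by -0.30 and SCPEP1 by -0.17. The call of SCPEP1 rests on series 2 of SHEP, without which it was at -0.07 (adjusted p = 0.05059).

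The peptidases CTSL and CTSC went the other way. CTSL, a cysteine endopeptidase, had 116, 134 and 151 TPM in SHEP MYC-OFF and 150, 181 and 206 TPM in MYC-ON, overlapping by a sliver, and was higher in 28 of 28 pairs (log2 change 0.43, SE 0.025, adjusted p = 3.144e-20). CTSC, which activates granule proteases by removing dipeptides, had 99.4, 115 and 139 TPM in MYC-OFF and 124, 172 and 199 TPM in MYC-ON and was higher in 27 of 28 pairs (0.52, SE 0.036, adjusted p = 1.699e-17). Cysteine cathepsins thus moved in both directions in the same libraries.

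In SKNAS 10 of the 13 peptidases fell, 1 rose and 2 were not called. CTSB had 189, 454 and 581 TPM in MYC-OFF and 47.9, 95.4 and 234 TPM in MYC-ON, the largest change of the listed genes in this line (log2 change -1.86, SE 0.17, adjusted p = 6.085e-07). CTSH had 17.0, 50.2 and 60.9 TPM against 5.21, 13.6 and 22.8 TPM (-1.79, SE 0.16, adjusted p = 3.81e-07), and CTSD had 124, 485 and 579 TPM against 136, 185 and 265 TPM (-1.24, SE 0.17, adjusted p = 2.469e-05). The MYC-OFF and MYC-ON ranges overlapped in all 3, at the low end of MYC-OFF, but CTSB and CTSH were lower in 13 of 13 pairs and CTSD in 12 of 13. CTSL was higher in 13 of 13 pairs, at 87.7, 96.3 and 106 TPM in MYC-OFF and 104, 120 and 136 TPM in MYC-ON (0.31, SE 0.084, adjusted p = 0.007976). CTSC, at a mean of 174 TPM in MYC-OFF and 170 TPM in MYC-ON, was not called (-0.055, adjusted p = 0.6938), and its sign turned under the rescaling and in the libraries with a median of at least 3.8. CTSF lost its SKNAS call after rescaling (-0.37, adjusted p = 0.08625) and TPP1 in the libraries with a median of at least 3.8 (-0.30, adjusted p = 0.2044).

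Of the 12 glycosidases, which take sugars off glycoproteins, glycolipids and glycosaminoglycans, 9 fell in SHEP, 1 rose and 2 were not called, with a median log2 change of -0.56. The fucosidase FUCA1 was at 40.6 TPM ± 3.86 in MYC-OFF and 23.6 ± 2.91 in MYC-ON (-0.76), the sialidase NEU1 at 36.2 ± 2.89 and 21.1 ± 2.55 (-0.76), and NAGLU, which cuts heparan sulfate, at 54.3 ± 3.79 and 33.1 ± 6.76 (-0.73). GUSB and GLB1, the beta-glucuronidase and beta-galactosidase, both changed by -0.61, MANBA by -0.60, IDUA by -0.53, MAN2B1 by -0.44 and FUCA2 by -0.22. FUCA2 lost its call with the library median as covariate (-0.15) and with series means (adjusted p = 0.05831), and in SKNAS, where it was at -0.52 as designed, it lay between -0.17 and -0.15 without a call after rescaling, with the covariate and in the libraries with a median of at least 3.8. In FUCA1, NEU1, NAGLU, GUSB and GLB1 no MYC-ON library reached the MYC-OFF range. GLA, the alpha-galactosidase lost in Fabry disease, was the exception: its SHEP libraries had 25.9, 31.6 and 37.5 TPM in MYC-OFF and 35.8, 49.2 and 57.4 TPM in MYC-ON, and it was higher in 28 of 28 pairs (0.62, SE 0.040, adjusted p = 1.218e-18). GAA, which breaks down glycogen and carries the 10-base palindrome at 2 places, had 47.0, 72.8 and 92.1 TPM in MYC-OFF and 51.3, 80.7 and 145 TPM in MYC-ON and missed the size asked for, with 0.14 (adjusted p = 0.01447). It passed without series 2 (0.22), after rescaling (0.19, adjusted p = 0.001533) and with the library median as covariate (0.19, adjusted p = 0.01128). HEXA, the enzyme lost in Tay-Sachs disease, also missed it at -0.12. In SKNAS 7 of the 11 tested glycosidases fell and none rose, FUCA1 the most (-1.14, adjusted p = 1.356e-05). NEU1 lost its SKNAS call after rescaling (-0.22, adjusted p = 0.1377). GLA, at 40.6 and 39.3 TPM there, was not called as designed (-0.026) and was called higher under the rescaling (0.34) and with the library median as covariate (0.20).

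Sulfatases, which remove sulfate from glycosaminoglycans and sulfolipids, fell in both lines, 4 of 4 in each. ARSA, the arylsulfatase that acts on myelin sulfatide, had 30.2, 42.2 and 49.2 TPM in SHEP MYC-OFF and 9.84, 17.3 and 23.5 TPM in MYC-ON, without overlap (log2 change -1.23, SE 0.056, adjusted p = 3.328e-24). SGSH changed by -1.11, ARSB by -0.84 and IDS by -0.46 in SHEP. In SKNAS the changes were -1.05, -0.94, -0.56 and -0.97, of which that of ARSB is close to the threshold (adjusted p = 0.04774) and lost its call under 6 of the 7 other settings run on the SKNAS libraries. IDS lost its call in the libraries with a median of at least 3.8 (-0.38, adjusted p = 0.1925) and SGSH after rescaling (-0.58, adjusted p = 0.05444). No sulfatase changed sign under a setting run.

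Among the 6 genes of lipid breakdown and export, 5 fell and PPT1 rose in both lines. NPC2, the soluble carrier that hands cholesterol to NPC1, had 205, 271 and 307 TPM in SHEP MYC-OFF and 69.2, 94.5 and 120 TPM in MYC-ON (log2 change -1.51, SE 0.042, adjusted p = 2.798e-32). It was also separate in SKNAS, at 190, 227 and 250 TPM against 84.7, 115 and 137 TPM (-1.05, SE 0.097, adjusted p = 6.498e-07). No other gene of the list was without overlap in both lines except CD63. SMPD1, the acid sphingomyelinase, changed by -1.18 in SHEP and -0.86 in SKNAS, PSAP by -0.90 and -0.85, the acid ceramidase ASAH1 by -0.57 and -0.68, and LIPA, which frees cholesterol from its esters, by -0.34 and -0.96. In SKNAS LIPA lost its call with the library median as covariate (-0.30, adjusted p = 0.06963) and in the libraries with a median of at least 3.8 (-0.21, adjusted p = 0.1936), and SMPD1 lost it after rescaling (-0.49, adjusted p = 0.06288). PPT1, which takes fatty acids off proteins and is lost in infantile ceroid lipofuscinosis, had 62.9, 72.2 and 82.7 TPM in SHEP MYC-OFF and 112, 126 and 146 TPM in MYC-ON. Every MYC-ON library was above every MYC-OFF library, at a log2 change of 0.79 (SE 0.029, adjusted p = 7.143e-28). In SKNAS it had 79.5, 132 and 146 TPM against 122, 166 and 248 TPM and was higher in 12 of 13 pairs (0.46, SE 0.12, adjusted p = 0.005452).

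Membrane proteins were split. LAMP2, which is needed for the fusion of autophagosomes and for chaperone-mediated uptake, had 142, 169 and 185 TPM in SHEP MYC-OFF and 70.0, 86.7 and 105 TPM in MYC-ON (log2 change -0.94, SE 0.040, adjusted p = 2.223e-25), and 8.27, 33.4 and 44.4 TPM against 3.12, 10.9 and 23.7 TPM in SKNAS (-1.39, SE 0.24, adjusted p = 0.0002546). Its close relative LAMP1, with the site TCACGTGA shown above, had 212, 249 and 269 TPM in SHEP MYC-OFF and 211, 244 and 285 TPM in MYC-ON. Its change was -0.01 in SHEP (95% interval -0.056 to 0.040) and -0.079 in SKNAS, with no call in either line and a sign that turned in both when the libraries were rescaled. CD63, a tetraspanin of lysosomes and secreted vesicles, had 590, 640 and 726 TPM in SHEP MYC-OFF and 293, 339 and 414 TPM in MYC-ON (-0.91, SE 0.029, adjusted p = 9.452e-30). In SKNAS it had 462, 622 and 894 TPM against 191, 279 and 412 TPM, again without overlap (-1.20, SE 0.12, adjusted p = 1.103e-06). SCARB2, the receptor that carries glucocerebrosidase to the lysosome, changed by -0.67 in SHEP and -0.94 in SKNAS, both called. NPC1, which takes cholesterol from NPC2 to the membrane, was not called, at -0.11 in SHEP and -0.55 in SKNAS (adjusted p = 0.05982). CLN3, the membrane protein lost in juvenile ceroid lipofuscinosis, had 20.1, 26.5 and 35.7 TPM in SHEP MYC-OFF and 24.1, 36 and 48.2 TPM in MYC-ON, higher in 28 of 28 pairs (0.41, SE 0.042, adjusted p = 5.207e-12). The calcium channel MCOLN1 was higher in 20 of 28 pairs (0.28, SE 0.057, adjusted p = 3.037e-05), but without series 1 it was at 0.20 (adjusted p = 0.07067). Neither was called in SKNAS, at 0.16 for CLN3 and 0.37 for MCOLN1 (adjusted p = 0.1926 and 0.2248). CLN3 was called higher there after rescaling (0.52, adjusted p = 0.003491) and with the library median as covariate (0.24, adjusted p = 0.02052), and MCOLN1 turned to -0.18 in the libraries with a median of at least 3.8.

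Of the 4 listed V-ATPase genes, 2 fell in SHEP: the accessory subunit ATP6AP1 (99.7 TPM ± 5.10 to 63.0 ± 8.61, log2 change -0.67) and ATP6V0D1, which joins the membrane sector to the stalk (115 ± 9.29 to 84.7 ± 18.6, -0.48). ATP6V1A, the catalytic subunit, and ATP6V1H, a regulatory one, were close to 0 at -0.01 and -0.02, with 95% intervals of -0.091 to 0.066 and of -0.077 to 0.044. In SKNAS ATP6AP1 (-0.85), ATP6V1A (-0.70) and ATP6V0D1 (-0.30) were called lower, and ATP6V1H was not called (0.13). ATP6V0D1 changed sign in SKNAS under the rescaling (0.076) and ATP6V1A lost its call in the libraries with a median of at least 3.8 (-0.24, adjusted p = 0.1761).

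**Figure D3:**
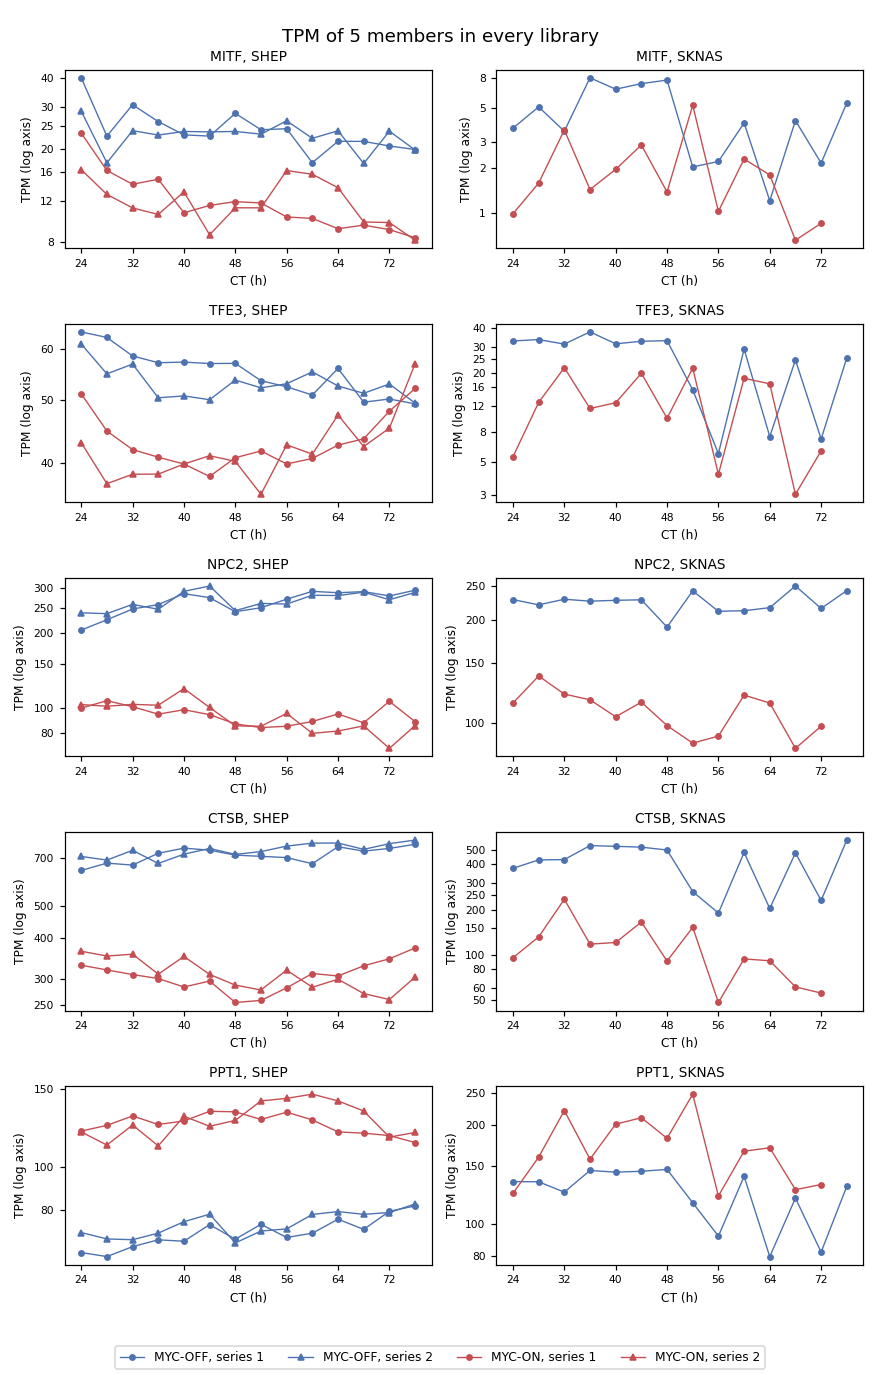
TPM (log axis) of MITF, TFE3, NPC2, CTSB and PPT1 in every library against CT in hours, for SHEP and SKNAS, with MYC-OFF in blue, MYC-ON in red, series 1 as circles and series 2 as triangles. In SHEP the groups of NPC2, CTSB and PPT1 stay apart at each CT, while in SKNAS the libraries of TFE3 range from 3.05 to 37.9 TPM.

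The response to MYC differed between the lines, by an interaction over all 83 libraries with a difference of at least 0.66 asked for, in 3 of 49 genes. All 3 had the lower log2 change in SKNAS, where they fell, while ATP6V1A was not called in SHEP: CTSD (SKNAS minus SHEP -0.88, SE 0.11, adjusted p = 9.917e-10), SCPEP1 (-0.72, adjusted p = 6.345e-10) and ATP6V1A (-0.69, adjusted p = 5.466e-06). Of all genes tested, 16.1% were called lower in this sense and 5.00% higher, so the share of listed genes called at this size lay below the background. The median difference was -0.22 over all genes and -0.18 over the listed genes. Without the size asked for, 34 of the 49 listed genes and 8547 of all 14870 genes had an unadjusted p under 0.05 in this limma fit. A missing call thus does not show a like response in the lines. SCPEP1 had 62.4, 75.9 and 84.7 TPM in SHEP MYC-OFF and 55.6, 65.9 and 79.3 TPM in MYC-ON, against 59.0, 137 and 178 TPM and 43.1, 72.6 and 89.3 TPM in SKNAS. ATP6V1A had 22.8, 28.1 and 33.9 TPM and 22.6, 28.4 and 32.9 TPM in SHEP, and 13.7, 31.2 and 43.8 TPM and 9.37, 16.9 and 31.9 TPM in SKNAS. CTSD in SHEP had 168, 205 and 235 TPM in MYC-OFF and 138, 160 and 208 TPM in MYC-ON. None of the 3 calls was kept when the libraries were rescaled, where they were at -0.60 (CTSD), -0.44 (SCPEP1) and -0.42 (ATP6V1A). With the library median as covariate, or without SHEP series 1, only CTSD of the 3 kept its call.

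Other lysosomal genes that are not on the list were read beside it, from lists written with earlier results of these data known. Of 22 further enzymes and membrane proteins, 19 were lower in SHEP MYC-ON, 2 higher and 1 not called, at a median log2 change of -0.52, and 15 were lower and none higher in SKNAS. HGSNAT, which acetylates heparan sulfate for breakdown, was at 18.4 TPM in SHEP MYC-OFF and 7.79 in MYC-ON (-1.16), and LAPTM4A, a small membrane protein, at 303 and 138 TPM (-1.14). Of 12 further V-ATPase subunits, 7 were lower and 2 higher in SHEP (median -0.17), led by ATP6AP2 (-0.53) and ATP6V1D (-0.48), and 3 were lower and none higher in SKNAS. Their SKNAS median of -0.22 did not reach that of all genes, -0.29. Of 6 genes that sort enzymes to the lysosome, 3 were lower and 1 higher in SHEP. These included the receptor SORT1 (-0.71) and GNPTAB, which starts the mannose 6-phosphate tag (-0.57). In SKNAS 3 of the 6 were lower and none higher. The counts for V-ATPase and sorting genes are to be read against the 38.9% of all genes lower and 33.0% higher in SHEP, and the 34.4% and 13.7% in SKNAS, and those of the sorting genes lie near these shares, with medians of -0.21 and -0.36. A last list held 17 genes of nutrient sensing at the lysosome and of the control of MiT/TFE factors. In SHEP 8 of the 17 were lower and 4 higher, with RRAGC (-0.59) and RRAGA (-0.56) at the front. In SKNAS 3 were lower and 1 higher. The medians of the nutrient sensing genes (-0.11 in SHEP and -0.18 in SKNAS) lay near those of all genes, -0.036 and -0.29.

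The genes with TCACGTGA near their start can be set beside the other listed genes with a promoter. In SHEP 3 of the 7 were lower and 2 higher, with a median log2 change of -0.01, from CTSA at -0.81 to CLN3 at 0.41. Of the 27 others tested, 22 were lower and 4 higher, with a median of -0.52. In SKNAS 3 of the 7 were lower and none higher (median -0.30), against 20 lower and 2 higher of 26 (median -0.86). For the shorter CACGTG the medians in SHEP were -0.42 over the 12 genes that hold it and -0.50 over the 22 that do not, and in SKNAS they were -0.57 over 12 and -0.86 over 21. These are descriptions of a few genes, with no test.

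Levels of some genes also drifted over the sampling, from CT24 to CT76, and more of them were called in MYC-ON than in MYC-OFF. Time in culture and CT cannot be told apart in this drift. Per the study's methods, N-MYC-ER was activated 24 h before dexamethasone was given. In MYC-ON cells the time since activation therefore rises with CT as well, and its part in the drift was not tested. Slopes are log2 changes per 24 h, fitted with a separate intercept for each series, and called at an adjusted p of at most 0.05 and a size of at least 0.15. In SHEP MYC-OFF 5 of the 49 genes rose over time and 1 fell, with 2.66% and 4.71% of all genes tested called that way. SGSH, the heparan N-sulfatase, rose the most (0.31 per 24 h, SE 0.049, adjusted p = 5.919e-06), from a mean of 27.9 TPM at CT24 to 48.7 TPM at CT76, and GAA next (0.26, SE 0.049, adjusted p = 0.0001437), from 59.0 to 85.2 TPM. CTSF (0.23), ARSA (0.18) and PSAP (0.17) rose as well, and IDS, which removes sulfate from dermatan and heparan sulfate, fell (-0.17, SE 0.041, adjusted p = 0.003327), from 102 to 82.9 TPM. The calls depend on the series: without series 2, 11 genes rose and 5 fell, and without series 1 no listed gene was called, while the slopes were 0.22 for SGSH, 0.20 for GAA and -0.14 for IDS and the calls over all genes went from 382 rising and 677 falling to 65 and 78.

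In SHEP MYC-ON 6 genes rose over time and 15 fell, with 16.8% of all genes rising and 31.1% falling, so that the share of listed genes that fell was close to the background. GAA rose from a mean of 57.7 TPM at CT24 to 135 TPM at CT76 (0.41 per 24 h, SE 0.049, adjusted p = 5.284e-10), and SGSH rose from 14.1 to 26.0 TPM (0.36, SE 0.049, adjusted p = 9.466e-09). NPC1 (0.25), HEXA (0.24), MAN2B1 (0.21) and PSAP (0.17) also rose. The steepest fall was in ATP6V0D1, from 98.5 to 52.2 TPM (-0.44, SE 0.039, adjusted p = 3.614e-14), followed by ARSB, from 18.3 to 9.81 TPM (-0.42, SE 0.054, adjusted p = 2.489e-09). CTSH (-0.39), MCOLN1 (-0.36), NAGLU (-0.33) and MITF (-0.32) fell too, as did 9 more: SMPD1, IDUA, FUCA2, CTSA, ATP6AP1, IDS, CLN3, CTSO and NPC2. MCOLN1, which was higher in MYC-ON on average, came down with time, from 22.1 TPM at CT24 to 14.9 TPM at CT76, where MYC-OFF cells had 15.7 TPM. The balance of rising and falling moved with the scaling: after rescaling, 12 listed genes rose and 11 fell, and of all genes 3286 rose and 3394 fell, against 2413 and 4468 as designed. In SHEP MYC-OFF the same rescaling gave 515 rising and 526 falling genes in place of 382 and 677.

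**Figure D4:**
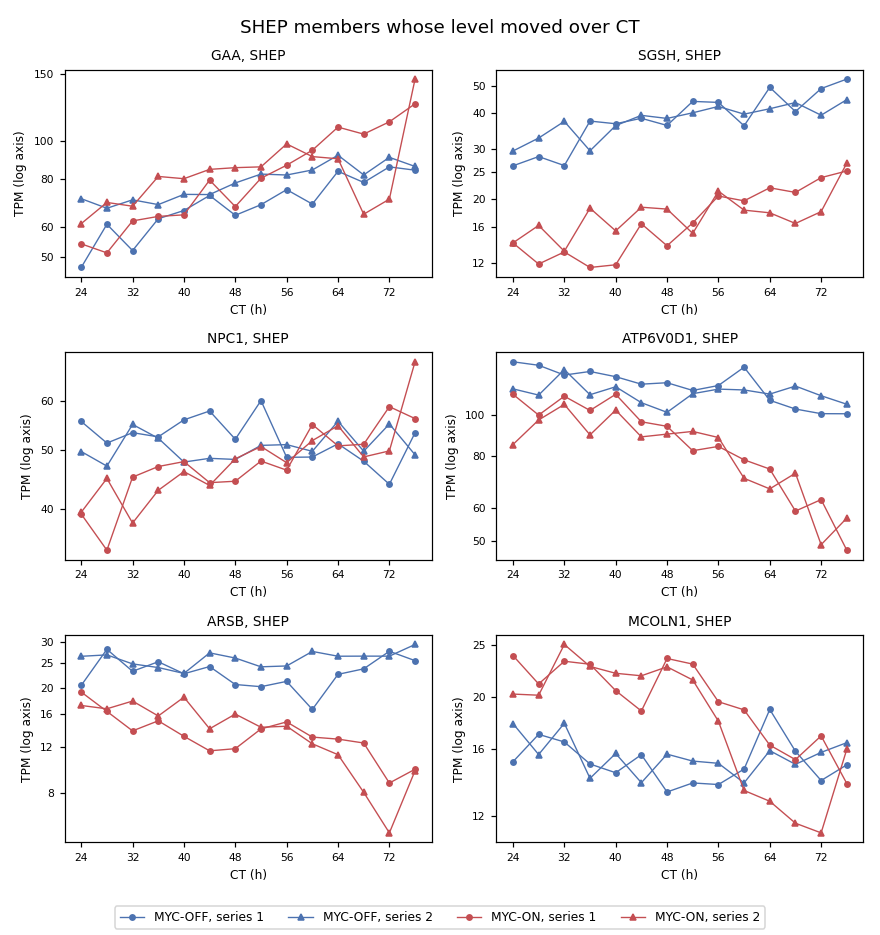
TPM of GAA, SGSH, NPC1, ATP6V0D1, ARSB and MCOLN1 in every SHEP library against CT in hours, with MYC-OFF in blue, MYC-ON in red, series 1 as circles and series 2 as triangles. GAA rises in MYC-ON from a mean of 57.7 TPM at CT24 to 135 TPM at CT76, whereas ARSB comes down from 18.3 to 9.81 TPM in MYC-ON and is at 23.5 and 27.4 TPM in MYC-OFF.

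The slope itself differed between MYC-ON and MYC-OFF in 17 of the 49 genes in SHEP, 14 with a lower slope in MYC-ON and 3 with a higher one. Of all genes, 24.7% had a lower and 14.7% a higher slope (after rescaling 2942 and 2680 genes in place of 3548 and 2109, and 13 and 6 of the listed genes). The widest gap was in ARSB (-0.45, SE 0.076, adjusted p = 3.507e-06), whose MYC-OFF slope was 0.03. NPC1 showed the widest gap upward, with a slope of -0.03 in MYC-OFF and 0.25 in MYC-ON (difference 0.27, SE 0.044, adjusted p = 1.007e-06), so that its mean in MYC-ON went from 39.4 TPM at CT24 to 62.8 TPM at CT76, while in MYC-OFF it was 52.6 and 51.1 TPM. TFE3 had a slope of -0.11 in MYC-OFF and 0.10 in MYC-ON, each below the size asked for, and the difference of 0.20 was called (SE 0.044, adjusted p = 0.0001883). Its means were 62.4 TPM and 47.1 TPM at CT24 and 49.5 TPM and 54.5 TPM at CT76, in MYC-OFF and MYC-ON, so that the order of the groups was reversed at the last time point. NPC2 and CTSH, which were lower in MYC-ON throughout, also had lower slopes there (-0.29 and -0.39).

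**Figure D5:**
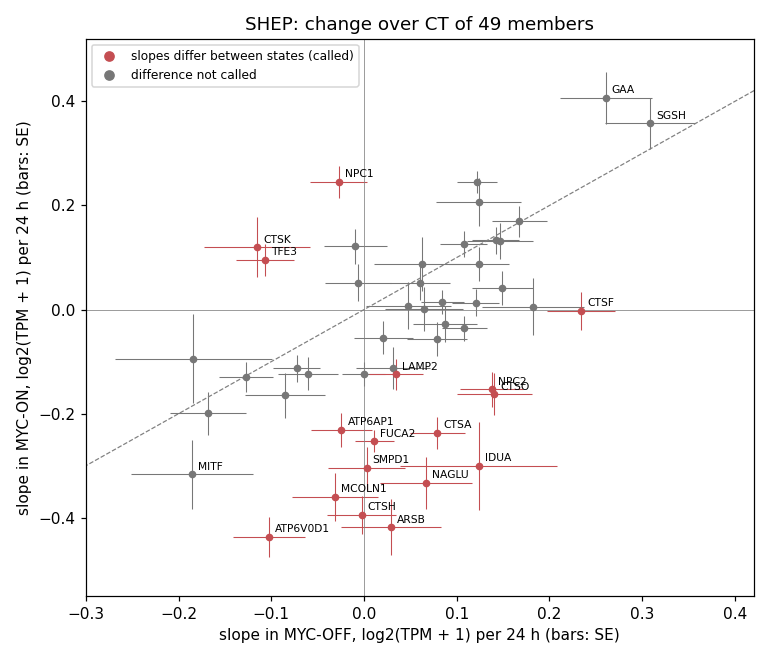
Slope over CT in SHEP MYC-ON (vertical axis) against that in MYC-OFF (horizontal axis), both in log2 per 24 h, for the 49 genes tested, with bars for the standard error, a dashed line of equal slopes and red for a called difference. Of the 17 red points, 14 lie below the line and 3 (NPC1, CTSK and TFE3) above it.

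In SKNAS few slopes were called. By limma no listed gene was called in MYC-OFF (12 of 48 had an unadjusted p under 0.05), against 0.0504% of all genes rising and 0.101% falling. In MYC-ON 1 was called and it fell, CTSH (-0.90 per 24 h, SE 0.17, adjusted p = 0.01333), where 0.0360% of all genes rose and 0.130% fell. CTSH was at 19.9 TPM at CT24, 11.1 TPM at CT48 and 6.58 TPM at CT72. Without CT72 and CT76 its slope was -0.94 with an adjusted p of 0.08218. No slope difference was called (1 listed gene at an unadjusted p under 0.05), where 0.0288% of all genes had a higher and 0.0504% a lower slope in MYC-ON.

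No listed gene had a called 24 h rhythm by limma in any group, where the test asked for a cosine of a fixed 24 h period on top of the linear drift. As background, 0.0487% of all SHEP genes were called in MYC-OFF and 0.0418% in MYC-ON, and 0 in SKNAS. With so few genes called at all, the lack of a listed gene does not show that these genes lack a rhythm. The study used another method, which fits the period, and called many more genes. It reported enrichment of endosomal and lysosomal trafficking among the genes it found to oscillate in SHEP MYC-OFF. At an unadjusted p under 0.05 SHEP had 2 of 49 genes in MYC-OFF (7.28% of all genes) and 6 of 49 in MYC-ON (11.9%), and SKNAS had none of 48 in either state (0.756% and 0.346% of all genes). The listed genes with the smallest p were NPC2 and TFEB in SHEP MYC-OFF, with amplitudes of 0.089 and 0.21 on the log2 scale (adjusted p = 0.6035 and 0.6747), and FUCA1 and LAMP2 in SHEP MYC-ON, with 0.10 and 0.079 (adjusted p = 0.2444 and 0.3002). The median amplitude of the listed genes was 0.035 (MYC-OFF) and 0.047 (MYC-ON) in SHEP, small beside the median level change of -0.52. No difference of rhythm between MYC states was called in either line (background 0 in both), and at an unadjusted p under 0.05 there was none among the listed genes, against 4.12% of all genes in SHEP and 0.526% in SKNAS.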

How the data were processed

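RNA was measured by polyA RNA sequencing in 83 libraries. Per the study's methods, the authors quantified reads with Salmon 1.3.0 against Gencode transcripts, summed them to genes and deposited TPM. TPM keep no read depth, so no counting error can be given, and limma 3.58.1 in R 4.3.3 took the place of the study's count model. Two-sided limma tests were run on log2(TPM + 1) over all genes whose mean in the line was 1 TPM or more, with CT as a factor and Benjamini-Hochberg adjustment over all of them. Fold changes on this scale understate those of genes at low TPM. Time points of a series were used as replicates, as in the study, but they share 1 experiment, so p-values measure only the spread between these libraries and are too small for experiments: SHEP has 2 and SKNAS has 1. No 2 libraries were identical. The fits were tested on simulated data. The genes and lists were chosen with earlier results of these data known. Genes named in full are the MiT/TFE factors, the 5 with the largest called change per direction and line, those called in the difference between lines, the 2 steepest per group and direction, and the 2 of smallest rhythm p per SHEP group, the rest being given by role. MCOLN1, NPC1 and TFE3 slopes, and LAMP1, were singled out after their values were seen. Series numbers are shared by both SHEP states: the difference between series correlated at r = 0.489 across 14362 genes. All value columns were used. Alternatives were another pseudocount, filters, rescaling by the median of ratios, the library median as covariate, an intensity trend, series means, a replicate block, other periods and left-out series, time points or libraries.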

Additional observations from a re-analysis of the deposited data

Results flagged for a closer look

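Results are listed here because the difference between groups was itself tested and called. The MYC effect was lower in SKNAS than in SHEP by an interaction term for CTSD (-0.88), SCPEP1 (-0.72) and ATP6V1A (-0.69), on the log2 scale. Lower by this measure means that MYC-ON was further below MYC-OFF in SKNAS. Of all genes tested, 16.1% were called lower in this sense, and the median difference was -0.22 over all genes and -0.18 over the listed ones. None of the 3 calls was kept after rescaling, and only that of CTSD with the library median as covariate or without SHEP series 1.

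In SHEP the slope over CT in MYC-ON minus that in MYC-OFF, in log2 per 24 h, was called below 0 for ARSB (-0.45), IDUA (-0.42), NAGLU (-0.40), CTSH (-0.39), ATP6V0D1 (-0.33), MCOLN1 (-0.33), CTSA (-0.32), SMPD1 (-0.31), CTSO (-0.30), NPC2 (-0.29), FUCA2 (-0.26), CTSF (-0.24), ATP6AP1 (-0.21) and LAMP2 (-0.16). It was called above 0 for NPC1 (0.27), CTSK (0.23) and TFE3 (0.20). Of the 13 tested peptidases, 4 were called below 0 and 1, CTSK, above 0. In the other enzyme roles, 3 of 12 glycosidases and 1 of 4 sulfatases were called below 0. By the same contrast 24.7% of all genes were called below 0 and 14.7% above. The time since N-MYC-ER was activated rises with CT in MYC-ON cells, and its part in these slope differences was not tested.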

How the results depend on the processing

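In SHEP the counts of listed genes stayed between 5 and 7 higher and between 34 and 37 lower under all settings run, and between 5 and 7 and between 36 and 37 with a series left out. With a replicate block for the series they were 6 higher and 37 lower, as without it, and the slopes, fitted with that block, were called in the same numbers with no replicate block (5 rising and 1 falling in MYC-OFF, 6 and 15 in MYC-ON). The listed genes below changed sign without a call, except where said. In SHEP these were LAMP1 (0.038 rescaled, 0.056 with the library median as covariate, -0.024 to 0.0075 with a series left out), ATP6V1H (0.030, 0.017, -0.042 to 0.011) and ATP6V1A (0.032, 0.068, -0.12 to 0.094). In SKNAS, after rescaling, they were TFEB (0.069), LAMP1 (0.29, called), ATP6V0D1 (0.076), CTSC (0.32), LGMN (0.25), GAA (0.0084), GLA (0.34, called), HEXA (0.29) and NAGLU (0.092). With the covariate they were LAMP1 (0.24, called), ATP6V1H (-0.16), GAA (0.045) and GLA (0.20, called), and in libraries with a median of at least 3.8 LAMP1 (0.17), MCOLN1 (-0.18), CTSC (0.28) and GLA (0.083).

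In SKNAS 5 genes were higher, in place of 2, after rescaling and with the covariate. Of all genes, 3831 and 3924 were then higher, in place of 1903. A lower MYC effect in SKNAS than in SHEP was called for 6 genes with a pseudocount of 0.1, 0 after rescaling, 1 with the covariate and 1 to 4 with a SHEP series left out, and a higher one for 2 after rescaling and 2 with the covariate. The median difference over all genes moved from -0.22 to 0.0099 after rescaling and 0.026 with the covariate. Calls over all genes were not counted under these settings. SHEP MYC-OFF slopes rose in 10 genes after rescaling, 8 with the covariate, 9 without CT72 and CT76 and 0 to 11 with a series left out, and fell in 0, 0, 1 and 0 to 5. Of all genes, 515, 480, 340 and 65 to 444 rose under these settings, in place of 382. Those that fell numbered 526, 529, 832 and 78 to 1057, in place of 677. SHEP MYC-ON slopes rose in 12, 11 and 8 genes and in 7 to 12 with a series left out. Of all genes, 3286, 2907, 2411 and 2172 to 2497 rose there, in place of 2413. The slope difference in SHEP was above 0 in 6 genes after rescaling, 5 with the covariate and 2 to 6 with a series left out. Of all genes, 2680, 2522 and 1541 to 1628 were called above 0, in place of 2109. In SKNAS MYC-ON 2 slopes fell with the covariate and 0 without CT72 and CT76, and 1 slope difference was below 0 after rescaling and 2 with the covariate. Of all genes, 149 and 9 slopes fell there, in place of 18. Slope differences below 0 numbered 11 after rescaling and 92 with the covariate over all genes, in place of 7. The cause of these changes was not tested. Rhythm calls were 0 under every setting run. How far the depth of single libraries limits these statements could not be checked, since TPM do not record it.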
